A study of Mus musculus with 6 samples.

Results

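The genes described here encode the proteins that join the nucleus to the cytoskeleton and line the inside of the nuclear envelope: the nesprins *Syne1*, *Syne2* and *Syne3*, the SUN proteins *Sun1* and *Sun2*, the lamins *Lmna*, *Lmnb1* and *Lmnb2*, and the lamin B receptor *Lbr*. The 9 genes were picked by name for their shared function, and the group was chosen by measured values too, since the rise of *Syne3* between the genotypes was known when it was put together. All 9 of 9 had a row among the 11339 genes of the table. Because the comparison of the genotypes entered the choice, the differences of these 9 genes are given as a description without p-values.

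RNA was sequenced at P14 from 3 *Mll1KO* and 3 wild-type (WT) samples that each pooled 2 retinas. *Mll1KO* mice carried floxed *Mll1* on both alleles and a transgene whose Cre recombinase is made in progenitors of the retina and which therefore acts in cells that descend from them. The controls are labelled wild type, without floxed alleles or Cre, whereas other assays of the study used Cre-negative littermates, so that effects of the transgene and of the deletion cannot be told apart here. Both genotypes are labelled as strain C57Bl6/J, and the study's methods call the samples biological replicates, with no litter given. Samples carry the letters a, b and c, and values of single samples are given in that order. Library totals, recovered from the values, were 23836033, 19777205 and 19323512 for WT and 23348923, 19855963 and 17961097 for *Mll1KO*. Levels are RPKM, reads scaled to the length of the gene and the total of the library, and fold changes are differences of mean log2(RPKM + 1), a scale on which changes of weakly expressed genes are understated.

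Nesprins sit in the outer nuclear membrane with a short tail, the KASH domain, reaching into the space between the membranes, where it is gripped by SUN proteins of the inner membrane. Together they form the LINC complex, through which the cytoskeleton pulls on the nucleus. Nesprin-1 and nesprin-2 are giant proteins that can bind actin and microtubule motors, while nesprin-3 binds plectin and through it intermediate filaments. In the retina, nesprin-2 and SUN proteins are needed for photoreceptor nuclei to reach their layer. Under the inner membrane lies the lamina, a mesh of A-type and B-type lamins, and the lamin B receptor tethers heterochromatin to it. Mouse rods lose the lamin B receptor and lack lamin A/C as they mature, and their heterochromatin gathers in the centre of the nucleus.

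*Kmt2a*, the current symbol of *Mll1* (ENSMUSG00000002028; chr9:44803355-44881296, GRCm38, minus strand), was measured first as a check of the labels. Its RPKM was 36.1, 36.9 and 34.6 in WT and 22.9, 20.4 and 22.3 in *Mll1KO*. The genotypes did not overlap, and the *Mll1KO* mean was 60.9% of WT (log2 fold change -0.69 with a standard error of 0.05, limma adjusted p = 2.77e-05). Transcript from exons that are not excised and from cells without Cre is included in this value.

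In WT, the most abundant of the 9 genes was *Lmnb1*, with 21.9 ± 0.831 RPKM (SD, n = 3), above 77.7% of all genes. It was followed by *Sun1* with 17.8 ± 0.427, *Syne2* with 16.0 ± 0.376, *Syne1* with 13.3 ± 0.587 and *Lmnb2* with 8.95 ± 0.341 RPKM (SD, n = 3). These 5 levels did not overlap between neighbours. Next came *Lbr* with 5.83 ± 0.290 and *Syne3* with 5.75 ± 0.197 RPKM (SD, n = 3), whose ranges overlapped. *Sun2* with 4.45 ± 0.195 and *Lmna* with 4.05 ± 0.534 RPKM (SD, n = 3) were lowest and overlapped as well, and *Lmna* exceeded 20.2% of all genes. The place of *Syne1* depends on the gene model, because the length behind its RPKM was 11801 bases whereas all its annotated exons cover 40491 bases. Lengths of other members also fell short of their annotated exons, with 4252 of 5838 bases for *Lmna*, 3551 of 4761 for *Lbr* and 4969 of 5420 for *Sun2*, so that the order among the lower genes depends on the gene model too. Comparisons of a gene between the genotypes use the same length on both sides.

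In *Mll1KO* the order differed at the top. *Syne3* had the highest mean of the 9 genes, 22.6 ± 3.10 RPKM (SD, n = 3), and its range overlapped that of *Lmnb1*, with 19.7 ± 0.994 RPKM (SD, n = 3). *Syne1*, *Syne2* and *Sun1* followed with ranges that ran into each other, and *Lmnb2*, *Lbr*, *Sun2* and *Lmna* kept their WT order below them.

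**Figure D1:**
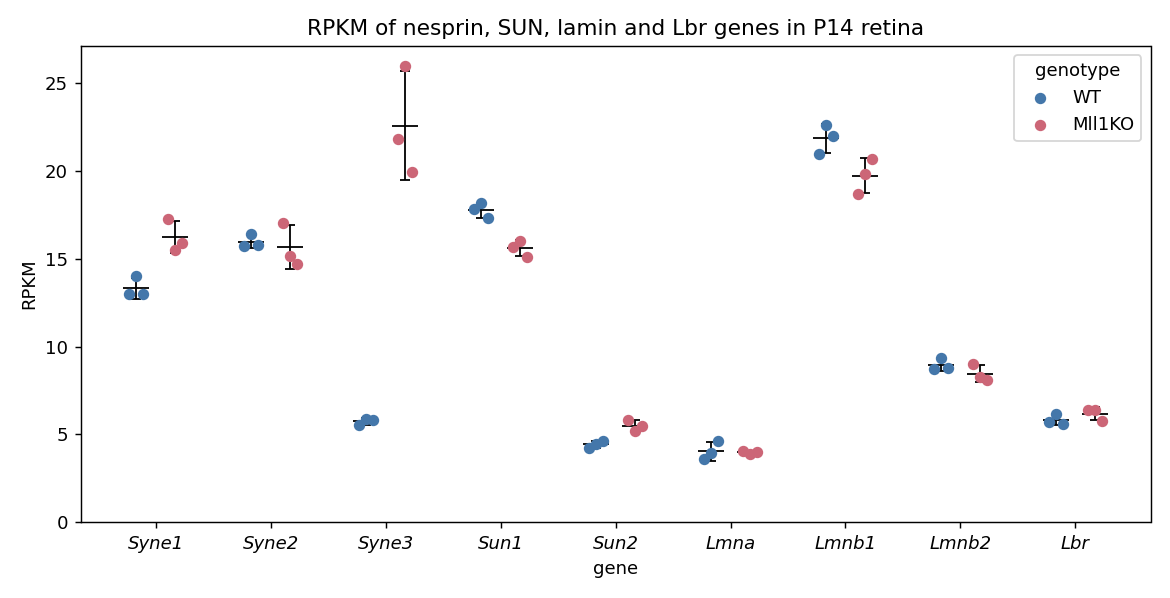
RPKM (vertical axis) of the 9 genes (horizontal axis) in each WT and *Mll1KO* sample, with 1 point per sample and black marks for the mean and SD of 3 samples. *Syne3* lies between 5.53 and 5.90 RPKM in WT and between 19.9 and 26.0 in *Mll1KO*, whereas *Syne2*, *Lmna*, *Lmnb2* and *Lbr* overlap between the genotypes.

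Calls below are those of 1 fit over all genes (limma, Benjamini-Hochberg adjustment over 11339 genes, threshold 0.05), which called 23.3% of all genes. Because the group was put together with this comparison known, the calls of its genes are no test and only describe them, and nothing is read from their number, which was 4 of 9. *Syne1*, *Syne3* and *Sun2* were called higher in *Mll1KO*, a direction called for 8.81% of all genes, and *Sun1* was called lower, a direction called for 14.5%. The 3 values of *Mll1KO* did not overlap the 3 WT values for 5 of the 9 genes, the 4 just named and *Lmnb1*, as for 41.1% of all genes. The median log2 fold change of the 9 genes was -0.02, and that of all genes was -0.03. Of all calls 37.8% were higher in *Mll1KO*, but this share rose to 51.9% with TMM, 53.1% with RLE and 52.8% with upper-quartile factors in place of library totals.

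*Syne3*, which encodes nesprin-3 (ENSMUSG00000054150; chr12:104929933-105009809, GRCm38, minus strand), had RPKM of 5.53, 5.90 and 5.84 in WT and 21.8, 26.0 and 19.9 in *Mll1KO*. The WT samples lay close together, and the *Mll1KO* samples were spread more widely, all far above WT. The mean was 3.93 times that of WT, and the log2 fold change was 1.80 (standard error 0.08). These values rest on 624 to 2857 reads per library. Its exons are shared with no other annotated gene.

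Among the 11339 genes, *Syne3* ranked 4 by log2 fold change. The 3 genes above it, named after their values were seen, were *Abcd4* with 2.80, *5430419D17Rik* with 2.08 and *BC055402* with 1.97.

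The genes around *Syne3* did not share its difference. Within 1 Mb on either side, 8 other genes had a row, a window set after the values were seen. Their median log2 fold change was -0.10, with a range of -0.13 to 0.20. *Glrx5*, a mitochondrial iron-sulfur protein gene and the nearest on one side, had 27.9 RPKM in WT and 26.4 in *Mll1KO*, and *Clmn*, the nearest on the other, had 3.59 and 3.73. *Gskip* was called higher (log2 fold change 0.20, limma adjusted p = 0.0256) and *Dicer1*, which processes microRNA precursors, was called lower (-0.13, limma adjusted p = 0.0328).

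*Syne1*, which encodes nesprin-1 (ENSMUSG00000096054; chr10:5020917-5551482, GRCm38, minus strand), had RPKM of 13.0, 14.01 and 13.0 in WT and 17.3, 15.5 and 15.9 in *Mll1KO*. Each *Mll1KO* sample was above each WT sample, and the gap between the nearest samples was smaller than for *Syne3*. The mean was 121.7% of WT (log2 fold change 0.27, standard error 0.05).

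*Syne2*, which encodes nesprin-2 (ENSMUSG00000063450; chr12:75818134-76110926, GRCm38, plus strand), had RPKM of 15.7, 16.4 and 15.8 in WT and 17.1, 15.2 and 14.7 in *Mll1KO*. The genotypes overlapped, with *Mll1KO* sample a above and samples b and c below WT. The log2 fold change was -0.03 (standard error 0.06), and it was slightly above 0 with RLE or upper-quartile factors.

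Ratios within a library do not depend on how libraries are scaled. *Syne2* divided by *Syne1* was 1.20 ± 0.0244 in WT and 0.964 ± 0.0334 in *Mll1KO* (SD, n = 3), without overlap. *Syne3* divided by *Syne1* was 0.432 ± 0.0155 in WT and 1.40 ± 0.239 in *Mll1KO* (SD, n = 3). The gene length used for *Syne1* sets the size of these ratios but is the same in both genotypes. *Syne3* divided by *Syne2*, which leaves *Syne1* out, was 0.351, 0.359 and 0.369 in WT and 1.28, 1.71 and 1.35 in *Mll1KO*. A share of each gene in the summed nesprin RPKM is not given, because it would rest on the *Syne1* length.

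The KASH tail, to which SUN proteins bind, ends the protein, and the last coding bases of the 3 nesprin genes are shown for this reason. The lines give the last 48 bases of the longest annotated coding transcript of each gene in GENCODE vM21, at chr10:5022007-5022054 (minus strand), chr12:76109997-76110044 (plus strand) and chr12:104932165-104932212 (minus strand) of GRCm38, with the last 4 codons before the stop codon in capitals.
*Syne1*: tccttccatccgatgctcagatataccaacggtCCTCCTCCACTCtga
*Syne2*: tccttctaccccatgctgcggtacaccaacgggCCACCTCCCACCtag
*Syne3*: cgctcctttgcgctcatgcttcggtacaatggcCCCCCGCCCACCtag
Counted position by position without gaps, *Syne1* and *Syne2* shared 34 of the 48 bases (70.8%). Before the capitals, the longest run common to *Syne2* and *Syne3* begins after 18 bases in *Syne2* but after 21 in *Syne3*, a shift of 1 codon, so that a count without gaps would understate the likeness of *Syne3* and is not given. In the capitals, *Syne2* and *Syne3* shared 10 of 12 bases, *Syne1* and *Syne2* 8, and *Syne1* and *Syne3* 7. The end shown belongs to 3 of 3 coding transcripts of *Syne3*, 4 of 5 of *Syne2* and 2 of 3 of *Syne1*, and RPKM per gene cannot separate transcripts with the KASH tail from those without it.

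*Sun1* (ENSMUSG00000036817; chr5:139200637-139249840, GRCm38, plus strand), whose protein spans the inner membrane and holds the KASH tail, had RPKM of 17.8, 18.2 and 17.3 in WT and 15.7, 16.0 and 15.1 in *Mll1KO*. Every *Mll1KO* sample was below every WT sample, at 87.8% of the WT mean (log2 fold change -0.18, standard error 0.04). The call of *Sun1* was lost without WT sample b (log2 fold change -0.16) and without *Mll1KO* sample c (-0.16). *Sun1* shares 3.98% of its exon bases with a gene on the other strand.

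*Sun2* (ENSMUSG00000042524; chr15:79724070-79742536, GRCm38, minus strand), the other widely expressed SUN gene, had RPKM of 4.24, 4.48 and 4.62 in WT and 5.80, 5.22 and 5.50 in *Mll1KO*. Here every *Mll1KO* sample was above every WT sample, at 123.9% of the WT mean (log2 fold change 0.26, standard error 0.06). *Sun2* shares 2.71% of its exon bases with a gene on the other strand.

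The SUN genes thus differed between the genotypes in opposite directions. *Sun1* divided by *Sun2* was 4.21, 4.06 and 3.75 in WT and 2.70, 3.07 and 2.75 in *Mll1KO*. *Sun1* had the higher RPKM of the pair in each sample, while the size of the ratio rests on the gene lengths used.

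Of the lamin genes, *Lmnb1* (ENSMUSG00000024590; chr18:56707813-56753424, GRCm38, plus strand), which encodes the farnesylated lamin B1, had RPKM of 21.0, 22.6 and 22.0 in WT and 18.7, 19.8 and 20.7 in *Mll1KO*. The genotypes did not overlap, but the gap between *Mll1KO* sample c and WT sample a was narrow, and the gene was not called (log2 fold change -0.14, standard error 0.05). *Lmnb2* (ENSMUSG00000062075; chr10:80901203-80918245, GRCm38, minus strand), which encodes lamin B2, had RPKM of 8.73, 9.34 and 8.78 in WT and 9.01, 8.27 and 8.08 in *Mll1KO*. Its genotypes overlapped (log2 fold change -0.07, standard error 0.06).

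*Lmna* (ENSMUSG00000028063; chr3:88480147-88509956, GRCm38, minus strand) encodes lamins A and C by alternative splicing, which a value per gene cannot separate. Its RPKM was 3.59, 3.92 and 4.64 in WT and 4.08, 3.86 and 3.98 in *Mll1KO*, so that all *Mll1KO* values lay within the WT range. The log2 fold change was -0.02 (standard error 0.07), and it was 0.01 with TMM, RLE or upper-quartile factors.

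*Lmnb1* had a higher RPKM than *Lmna* in each sample. *Lmnb1* divided by *Lmna* was 5.45 ± 0.613 in WT and 4.97 ± 0.338 in *Mll1KO* (SD, n = 3), with overlap. The size of this ratio rests on the gene lengths used.

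*Lbr* (ENSMUSG00000004880; chr1:181815335-181843046, GRCm38, minus strand), whose protein binds B-type lamins and heterochromatin, had RPKM of 5.73, 6.15 and 5.60 in WT and 6.38, 6.41 and 5.79 in *Mll1KO*. The genotypes overlapped (log2 fold change 0.08, standard error 0.06). *Lbr* shares 10.7% of its exon bases with other annotated genes, so that its reads are less certain than those of the other members.

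Promoters were compared for CG dinucleotides, because the CXXC domain of MLL1 binds unmethylated CG-rich DNA. Windows from 250 bases before to 50 after a start were available in RefSeq (GRCm38.p6) for 8 of the 9 genes, all but *Lmnb1*, and for 8922 gene symbols of the table, with a median of 21 CG per window. The letters CG, the same on both strands, occurred in 99.5% of the 11589 windows. *Syne3* had 5 CG in its window, and 10.8% of windows held as few or fewer. *Sun2* had 39, *Lbr* 42 and *Syne2* 35, while *Sun1* had 36 and 4, *Lmnb2* 24 and 6 and *Lmna* 1 and 7 at their 2 starts. *Syne1* had 12, 3 and 4 at its 3 starts. Over all starts, low and high CG counts occurred both among genes whose genotypes did not overlap and among those whose genotypes did. The low counts of overlapping genes, both of *Lmna* and the 6 of *Lmnb2*, lay at starts inside the longer GENCODE genes. Their other counts, 35 for *Syne2*, 24 for *Lmnb2* and 42 for *Lbr*, were above the median. No relation of CG count and genotype difference is read from these windows. The 250 bases before the start of *Syne3* (chr12:104998678-104998927, minus strand) and *Sun2* (chr15:79742537-79742786, minus strand) are given with CG in capitals to show a low and a high count. The 250 bases shown for *Syne3* lie inside the longer GENCODE gene but in none of its exons, and which start is used in these retinas was not measured.
*Syne3*: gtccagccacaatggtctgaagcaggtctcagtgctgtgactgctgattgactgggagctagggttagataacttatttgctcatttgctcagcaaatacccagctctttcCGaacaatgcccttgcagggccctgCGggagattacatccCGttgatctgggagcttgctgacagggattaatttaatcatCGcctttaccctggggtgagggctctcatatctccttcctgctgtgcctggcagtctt
*Sun2*: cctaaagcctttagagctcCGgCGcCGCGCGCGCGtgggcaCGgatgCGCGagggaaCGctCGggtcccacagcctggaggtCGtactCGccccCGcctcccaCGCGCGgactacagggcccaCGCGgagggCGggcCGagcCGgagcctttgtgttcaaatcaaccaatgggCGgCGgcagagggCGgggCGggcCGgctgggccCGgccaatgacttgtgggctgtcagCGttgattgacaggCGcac

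The wider nuclear envelope was examined with 6 lists of 75 genes, of which 67 had a row. In these lists 9 genes were called lower and 0 higher by limma, which is 13.4% of them, beside 14.5% of all genes called lower and 23.3% called in either direction. The median log2 fold change was -0.05, beside -0.03 over all genes. The number called was 5 with RLE or upper-quartile factors, 2 without WT sample b, 5 without *Mll1KO* sample b and 3 without *Mll1KO* sample c. The absence of higher calls depends on the scaling, since 2 genes were called higher and 4 lower with TMM factors, and 2 higher and 3 lower with RLE or upper-quartile factors. Of the 9 genes, only *Dctn1* and *Nup58* were called under all 14 alternatives.

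Of 6 other KASH or SUN genes, *Sun3*, *Sun5*, *Spag4* and *Irag2* had no row in the table used here, and neither *Syne4* nor *Kash5* was called (limma adjusted p = 0.227 and 0.0632). *Kash5* was close to the threshold and was called higher in 4 of 14 alternatives, those with TMM, RLE or upper-quartile factors and without WT sample c. *Syne4*, which encodes the epithelial nesprin-4, had RPKM of 3.72, 4.17 and 3.51 in WT and 4.77, 3.74 and 4.44 in *Mll1KO*. The genotypes overlapped for both *Syne4* and *Kash5*, whose median log2 fold change was 0.18.

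Of 12 cytoskeletal partners of nesprins, 3 were called lower and 0 higher, beside 14.5% of all genes called lower and 8.81% called higher, with a median log2 fold change of -0.08. They were *Dctn1*, the largest dynactin subunit and the most abundant of the list, the dynein heavy chain *Dync1h1* and the dynein adaptor *Bicd2*. *Dctn1* had RPKM of 160.3, 165.7 and 159.4 in WT and 138.3, 142.6 and 137.5 in *Mll1KO*, without overlap (log2 fold change -0.21, limma adjusted p = 0.00392). *Dync1h1* was at 89.2% of its WT mean (log2 fold change -0.16, limma adjusted p = 0.0358), and *Bicd2* at 84.9% (-0.23, limma adjusted p = 0.0264). *Dync1h1* lost its call in 7 and *Bicd2* in 6 of 14 alternatives, and *Dctn1* was the only call left with RLE or upper-quartile factors, without WT sample b and without *Mll1KO* sample c. *Plec*, which encodes plectin, the partner of nesprin-3, was looked up after the values were seen and was not called. Its RPKM was 8.85, 9.78 and 10.02 in WT and 10.2, 9.86 and 9.71 in *Mll1KO*, with overlap (log2 fold change 0.05, limma adjusted p = 0.544).

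Of 16 genes for inner nuclear membrane and LEM-domain proteins, torsins and their cofactors, 1 was called lower and 0 higher (6.25%), with a median of 0.01. This was *Tmem120b* (log2 fold change -0.22, limma adjusted p = 0.0370), whose call was lost in 9 of 14 alternatives. The gene of the list that was most abundant in WT, *Lemd2*, was not called (-0.11, limma adjusted p = 0.220). Of 5 enzymes that process prelamins, 0 were called by limma, with a median of 0.01. *Icmt*, which methylates the farnesylated end of lamins and was the most abundant of them, had RPKM of 142 in WT and 154 in *Mll1KO* (log2 fold change 0.11, limma adjusted p = 0.0699). It was called higher in 4 of 14 alternatives, with TMM, RLE or upper-quartile factors and by limma-voom.

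Of 6 chromatin partners of the lamina, 1 was called lower and 0 higher (16.7%), with a median of 0.02. This was *Banf1*, which bridges DNA and LEM-domain proteins (log2 fold change -0.13, limma adjusted p = 0.0426), while *Prr14*, the most abundant, was not called (-0.16, limma adjusted p = 0.0509). The difference between them is not firm, as *Banf1* lost its call in 10 of 14 alternatives and *Prr14* was called lower in 3. Of 30 nuclear pore subunits, *Nup35*, *Nup37*, *Nup43* and *Nup62* had no row, and of the other 26, 4 were called lower and 0 higher, with a median of -0.09. The share called, 15.4%, was near the 14.5% of all genes called lower. The pore scaffold gene *Nup155* had the lowest value (log2 fold change -0.23, limma adjusted p = 0.0203), and *Tpr*, of the nuclear basket, the highest among those called (-0.14, limma adjusted p = 0.0241). *Nup58* and *Pom121*, named after their values were seen, were the other called genes, and *Sec13*, the most abundant, was not called (-0.12, limma adjusted p = 0.238). *Nup58* kept its call in all 14 alternatives and *Nup155* in 12, but *Pom121* lost it in 7 and *Tpr* in 8, and only *Nup58* was left without WT sample b or *Mll1KO* sample b.

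**Figure D2:**
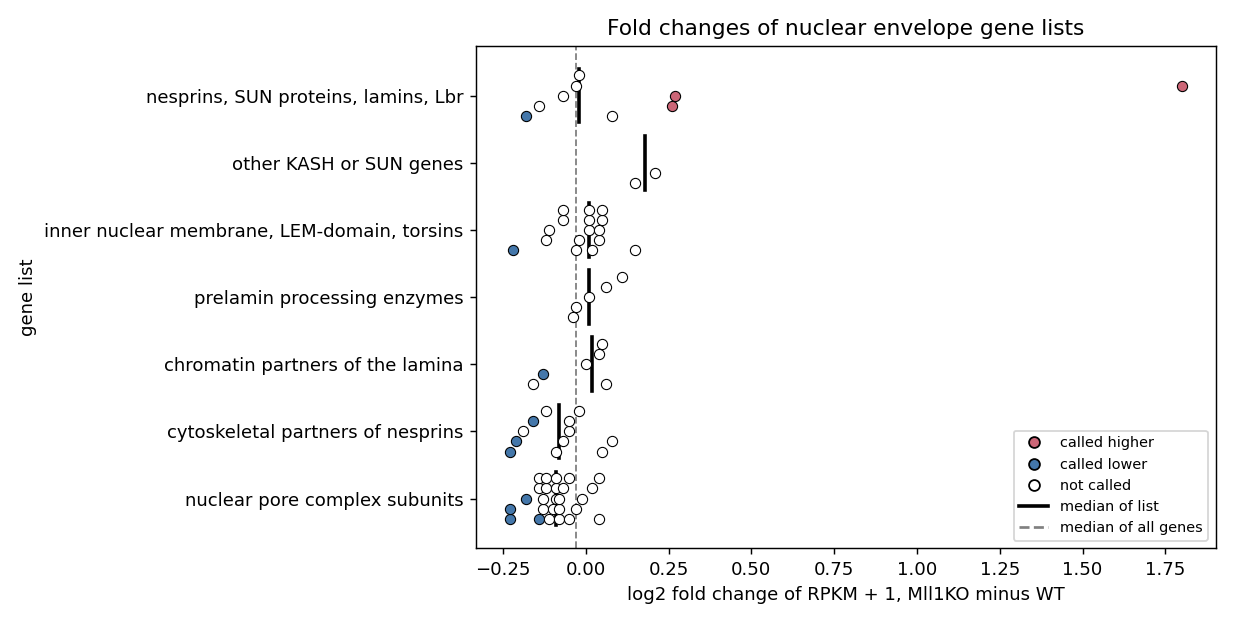
Log2 fold change of RPKM + 1, *Mll1KO* minus WT (horizontal axis), of each gene in the group of 9 genes and in 6 lists of nuclear envelope genes (vertical axis), with 1 point per gene coloured by the limma call, black bars for list medians and a dashed line for the median of all genes. *Syne3* at 1.80 stands apart from every other gene shown, of which the next highest is *Syne1* at 0.27.

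Whole retina mixes cell types, and in bulk RNA fewer cells of a type and less RNA per cell cannot be told apart. Marker lists for 15 cell types were measured in the same libraries, with 60 of 96 markers called by limma (62.5%, beside 23.3% of all genes), 28 higher and 32 lower. Their part in the values of the nesprin, SUN and lamin genes was not tested.

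Rods are the most numerous cells, and 10 of 14 rod markers were called higher and 1 lower. Their summed RPKM was 17638, 16797 and 17245 in WT and 21324, 21653 and 21023 in *Mll1KO*. Of 10 cone markers, 7 were called higher and 1 lower, *Gnb3* was the most abundant, and the sum was 539.1, 565.5 and 576.5 in WT and 606.0, 638.5 and 648.5 in *Mll1KO*. Both photoreceptor sums were above WT in each *Mll1KO* sample.

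The glial marker sums were also higher, although single markers differed. Of 10 Müller glia (MG) markers, 5 were called higher and 2 lower. *Glul* was the most abundant, and the sum was 1461, 1445 and 1591 in WT and 1833, 1918 and 1884 in *Mll1KO*. *Vim*, the intermediate filament gene on this list, was looked up after the values were seen and was called lower (log2 fold change -0.47, limma adjusted p = 8.29e-05). Of 4 astrocyte markers, *Pax2* had no row and 2 of 3 were called higher, and the sum was 11.1, 11.8 and 11.2 in WT and 19.2, 18.2 and 17.8 in *Mll1KO*. The most abundant, *Gfap*, encodes an intermediate filament protein and had RPKM of 3.81, 4.40 and 4.16 in WT and 10.2, 8.50 and 8.42 in *Mll1KO*.

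Markers of several inner neurons were lower. Of 7 horizontal cell (HC) markers, *Lhx1* and *Gja10* had no row and 4 of 5 were called lower. *Prox1* was the most abundant, and the sum was 83.0, 86.4 and 81.8 in WT and 55.0, 57.0 and 59.6 in *Mll1KO*. Of 11 bipolar cell (BC) markers 7 were called lower and 0 higher, with sums of 514.4, 511.7 and 503.7 in WT and 432.7, 426.0 and 437.6 in *Mll1KO*. Of 10 ganglion cell (GC) markers, *Isl2* had no row and 8 of 9 were called lower. The most abundant was *Sncg* in WT and *Thy1* in *Mll1KO*. The GC sums were 570.8, 530.8 and 558.4 in WT and 449.7, 399.4 and 372.3 in *Mll1KO*. Amacrine cell (AC) markers were mixed, as *Th* had no row and of the other 9, 2 were called higher and 4 lower. With TMM, RLE or upper-quartile factors, or without *Mll1KO* sample b, 4 were called higher and 4 lower. The AC sums, led by *Slc32a1*, were 262.9, 249.3 and 260.7 in WT and 246.3, 242.9 and 272.3 in *Mll1KO*. The HC, BC and GC sums were below WT in each *Mll1KO* sample.

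Vessel cells do not arise from retinal progenitors, and their marker sums were lower in *Mll1KO*. Of 8 endothelium markers, *Emcn* had no row, 3 were called lower and 1, *Flt1*, higher, with sums of 88.7, 87.4 and 85.2 in WT and 70.1, 63.3 and 64.4 in *Mll1KO*. *Kdr*, the most abundant, had a mean of 37.6 RPKM in WT and 22.3 in *Mll1KO* and makes up much of this difference. *Flt1* and *Tek* were above WT in each *Mll1KO* sample. With TMM, RLE or upper-quartile factors, 2 endothelium markers were called higher and 3 lower. Of 5 pericyte markers, *Kcnj8* had no row and 2 of 4 were called lower, led by *Rgs5*, with sums of 55.8, 40.6 and 60.0 in WT and 36.7, 35.4 and 38.2 in *Mll1KO*. Of the pericyte calls only *Rgs5* stayed when *Mll1KO* sample c, or WT sample a, was left out. The pericyte sums also hold *Acta2*, which was not called and was uneven in WT. It had RPKM of 14.5, 3.21 and 22.3 in WT and a mean of 3.63 in *Mll1KO*, with overlap, and adds to the difference of the sums. Without WT sample b, *Acta2* was called lower. Microglia markers *Aif1*, *C1qa*, *P2ry12* and *Tmem119* had no row, 0 of the other 4 were called by limma, and the sum, led by *C1qb*, was 17.1, 17.2 and 16.7 in WT and 15.8, 17.4 and 18.3 in *Mll1KO*, but *C1qb* was called lower without *Mll1KO* sample c.

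Markers of tissue next to the retina and of dividing cells were low or uneven. Fibroblast markers *Col1a1*, *Dcn* and *Lum* had no row, and *Col1a2*, the more abundant of the other 2, was called higher, with sums of 3.59, 2.57 and 3.94 in WT and 6.61, 6.28 and 7.00 in *Mll1KO*. *Col3a1*, the other, was called lower without WT sample b. *Rpe65*, *Tyr* and *Lrat* of the retinal pigment epithelium had no row, 0 of the other 3 were called, and the sum, led by *Ttr*, was uneven in both genotypes at 181.2, 96.4 and 281.1 in WT and 78.7, 170.9 and 81.3 in *Mll1KO*. The count of 0 is not firm, since *Dct* and *Pmel* were called lower without WT sample b, and *Ttr* and *Pmel* without *Mll1KO* sample b. Lens markers *Cryba1*, *Crybb2* and *Crygs* had no row, 0 of the other 2 were called, and the sum, led by *Cryab*, was 45.0, 38.9 and 46.2 in WT and 64.1, 46.4 and 36.4 in *Mll1KO*, although *Cryab* was called lower without WT sample b and *Cryaa* higher without *Mll1KO* sample c. *Mki67*, *Top2a*, *Ccnb1* and *Cdk1* of dividing cells had no row, 0 of the other 3 were called, and the sum, led by *Pcna*, was 13.9, 14.03 and 14.6 in WT and 14.3, 12.6 and 13.4 in *Mll1KO*.

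**Figure D3:**
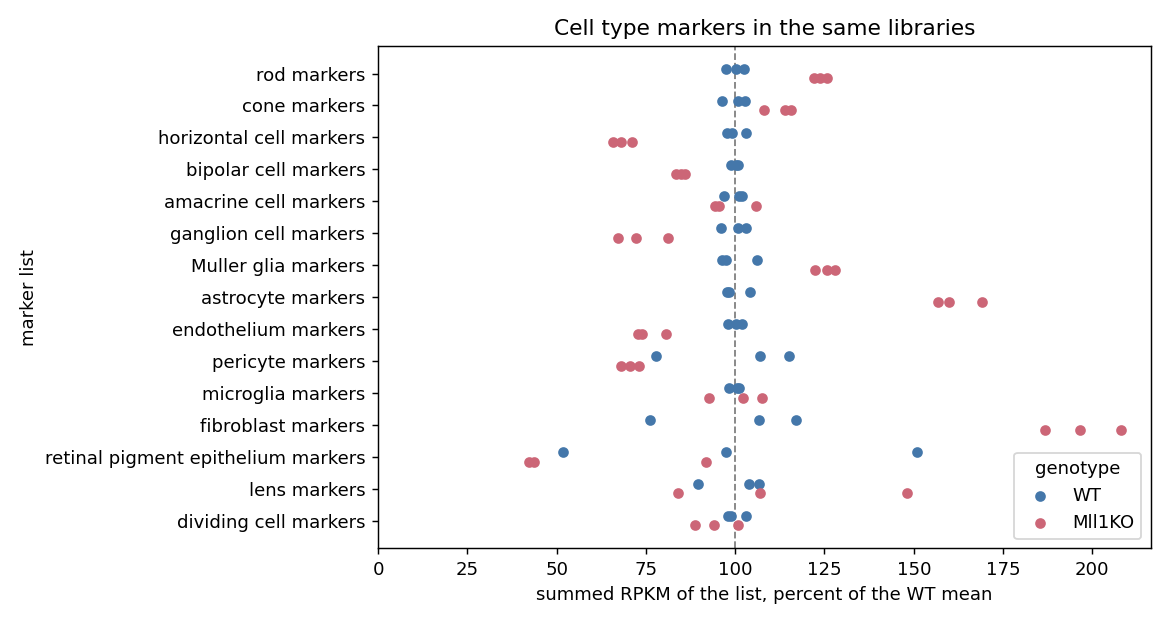
Summed RPKM of each marker list as a percent of its WT mean (horizontal axis) for 15 cell types (vertical axis), with 1 point per sample. The rod, cone, MG, astrocyte and fibroblast sums of *Mll1KO* lie above WT, the HC, BC, GC, endothelium and pericyte sums lie below, and the AC, microglia, pigment epithelium, lens and dividing cell sums overlap.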

How the data were processed

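The authors aligned single-end reads with STAR (2.0.4b) to mouse mm10, counted them per gene with Subread featureCounts (1.45), kept genes whose CPM exceeded 5 in 5 or more samples and deposited RPKM for 3 WT and 3 *Mll1KO* samples. The deposited table also holds the authors' own edgeR comparison of the genotypes, as a log2 fold change, a log2 mean CPM, a p-value and an FDR per gene, and none of these was used. Whole reads were recovered from RPKM for 100% of genes within 0.005 reads, and the gene with the fewest had 90 reads. The gene length was that of the annotated exons for 6042 genes. For *Syne1*, *Syne3*, *Sun2*, *Lmna* and *Lbr* the length was found by a search, so that whole reads are no separate check of it. RPKM was tested as log2(RPKM + 1) with limma (3.58.1, R 4.3.3) with a variance trend and genotype as the sole term, and p-values were adjusted over 11339 genes by Benjamini-Hochberg at 0.05. The procedure was tested on simulated data. The members and the 6 pathway and 15 marker lists were chosen with earlier results of these data known. Named were all members, *Kmt2a*, the called genes with the highest and lowest fold change and the most abundant gene of each pathway list, and the most abundant gene and the genes without a row of each marker list, and some genes that meet this rule are not reported here. The strand setting of the counting was not given in the sources used here. Coordinates and transcripts came from GENCODE vM21 and promoters from RefSeq. Alternatives were pseudocounts of 0.1 and 5, a mean RPKM of at least 1, TMM, RLE and upper-quartile factors, limma-voom on the recovered reads, a replicate term and leaving out each sample. Tables and figures were made with Python 3.11.15, pandas 2.3.3, numpy 2.4.6 and matplotlib 3.10.9.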

Additional observations from a re-analysis of the deposited data

How the results depend on the processing

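The number of genes called was 2643, and 1704 to 2536 when each sample was left out in turn, with the fewest without WT sample b and 1757 without *Mll1KO* sample c. Of the 9 nesprin, SUN, lamin and *Lbr* genes 4 were called, and 3 to 4 when samples were left out, *Sun1* being lost without WT sample b or *Mll1KO* sample c. These calls are a description, as the choice of the genes used the same comparison. The log2 fold changes of *Syne1*, *Syne3* and *Sun2* ranged from 0.21 to 0.30, 1.35 to 1.97 and 0.15 to 0.31 over the alternatives. Those of *Lmnb2* and *Lbr* ranged from -0.12 to -0.04 and from 0.05 to 0.12, and neither gene was called in any alternative. Genes called in the pathway lists numbered 9, but 5 with RLE and 5 with upper-quartile factors, and 2 to 7 when samples were left out, with 2 without WT sample b, 5 without *Mll1KO* sample b and 3 without *Mll1KO* sample c. The cause was not tested. *Syne2* (-0.03) changed sign without being called, to 0.002 with RLE and 0.002 with upper-quartile factors and -0.09 to 0.01 when samples were left out (0.01 without *Mll1KO* sample c). *Lmna* (-0.02) did so too, to 0.01 with TMM, RLE and upper-quartile factors and -0.08 to 0.06 when samples were left out (0.06 without WT sample c). With the replicate letter as a block (replicate block), 2242 genes were called and the same 4 of the 9. Deviations of samples with the same letter correlated at -0.039, -0.19 and -0.007, which shows no pairing by letter. With 3 samples per genotype these values cannot exclude a shared litter or preparation, so whether the letters pair samples is unknown.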
